A study of Mus musculus with 16 samples.

Results

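The 6 arrays labelled WAT, 3 from mice kept in the cold and 3 from mice kept at room temperature, were compared with each other. They are 6 of the 16 arrays of the series, the others being 6 of BAT and 4 labelled liver, and were taken by their titles. All mice were C57BL/6, labelled female and housed 1 to a cage on chow. Room temperature mice stayed at 22°C for 72 h, and cold mice spent 48 h at 22°C and then 24 h at 8°C. Of 46643 probes on the Illumina MouseWG-6 array, 14380 had a detection score of at least 0.95 on at least 2 of the 6 arrays and were tested. The score says how far a probe lies above the negative controls, and a probe at or above 0.95 is called detected. On each array 11915 to 13672 probes were detected. The annotation named the gene of 10279 of the tested probes, which stand for 8159 genes, and each gene is given by its brightest tested probe. Signals are in linear intensity units with background subtracted, so a dim probe can lie below 0, and they are not comparable between genes. As deposited they shared a lower quartile of -2.7 and a median of 2.7 on all 6 arrays. They are thus not raw intensities of each array. Log2 changes are cold minus room temperature, after background correction and quantile normalization over these 6 arrays, and p is from limma, adjusted over all 14380 probes.

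White fat stores triglyceride and secretes adiponectin, while hepatocytes make plasma proteins, cholesterol, bile acids and glucose. In the cold, fat releases fatty acids, and the liver turns part of them and other fuels into substrates for tissues that make heat. The marker genes on these arrays were those of hepatocytes, as follows, so every result is given for the arrays as labelled and not for a tissue. In such bulk RNA, fewer cells of a type and less RNA per cell cannot be told apart.

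Hpx, which encodes the heme-binding plasma protein hemopexin of hepatocytes, had signals of 16938, 17096 and 14912 at room temperature, against 16934, 16172 and 11069 in the cold. Ttr, which encodes the thyroid hormone carrier transthyretin, had 12575, 15297 and 13105 at room temperature, against 13748, 12009 and 12784 in the cold. Adipoq, which encodes adiponectin, had 12.9, 65.7 and 14.8 at room temperature, against 32.4, 16.6 and 27.5 in the cold. Adipoq was detected on 5 of the 6 arrays but at no more than 65.7, against 3245 to 5064 on the BAT arrays, whereas both hepatocyte genes were among bright probes. Summed over 13 hepatocyte markers on the array, signals were 117340 to 138312, against 1666 to 11219 on the BAT arrays. Summed over 10 adipocyte markers they were 216 to 629, against 19420 to 22437. Of those 10, only Lpl, Lipe, Pparg and Adipoq passed the detection filter. None of the 3 genes that check the label passed the test, with log2 changes of -0.17 ± 0.22 (SE) for Hpx, -0.07 ± 0.19 for Ttr and -0.05 ± 0.38 for Adipoq (n = 3 arrays a group, adjusted p = 0.964, 0.982 and 0.998). Sex-dependent transcripts were mixed with respect to the label female. Both probes of Xist, the RNA of the inactive X chromosome, lay between -6.7 and 6.1 and were detected on 0 of the 16 arrays. Eif2s3y, a gene of the Y chromosome, lay between 37.6 and 147 and was detected on all 16. Other Y genes, Kdm5d and Uty, lay between -6.6 and 11.8, and Cyp4a12a, a cytochrome P450 typical of male mouse liver, between 2607 and 6810. Male-typical Cyp2d9 lay between 5069 and 12089, Hsd3b5 between 749 and 4299, and 1 of 2 probes of Slco1a1 between 379 and 1336. The other Slco1a1 probe was not detected. Of genes typical of female mouse liver, Cyp2b9 was at 2.1 on 1 array and at 67.7 to 594.6 on the 5 that detected it. Cyp2b13 was detected on 2 arrays, A1bg on 3, Sult3a1 and Hao2 on 1 each, and Cyp3a44 and both probes of Cux2 on none.

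Cold replicate 3 stood apart from the other 5 arrays. The summed signal of 19 exocrine pancreas markers was 118730 there, or 2.09% of all signal, and 5757 to 8921 on the others, or 0.101% to 0.158%. The first principal component, with 47.6% of the variance, separated this array from the rest. Of its tested probes 33 were over 8 times as bright as the mean of the other 5 arrays, led by chymotrypsinogen Ctrb1 at 18318 against 3.9 to 479, and 9 were over 8 times as dim. All 18 tested pancreas genes had a positive log2 change, with a median of 1.49, but without this array the median was -1.23 over 11 genes, and 4 genes, all lower, had an unadjusted p under 0.05, a rule that 2.91% of all 13836 probes of that fit met as higher and 3% as lower. Skeletal muscle markers, summed over 12 genes, were also uneven, at 1470 on cold replicate 1, 884 on cold replicate 3, 606 on room temperature replicate 2 and 14.7 to 51.4 on the other 3. How far these signals enter the cold changes below was not tested beyond leaving out each array.

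**Figure D1:**
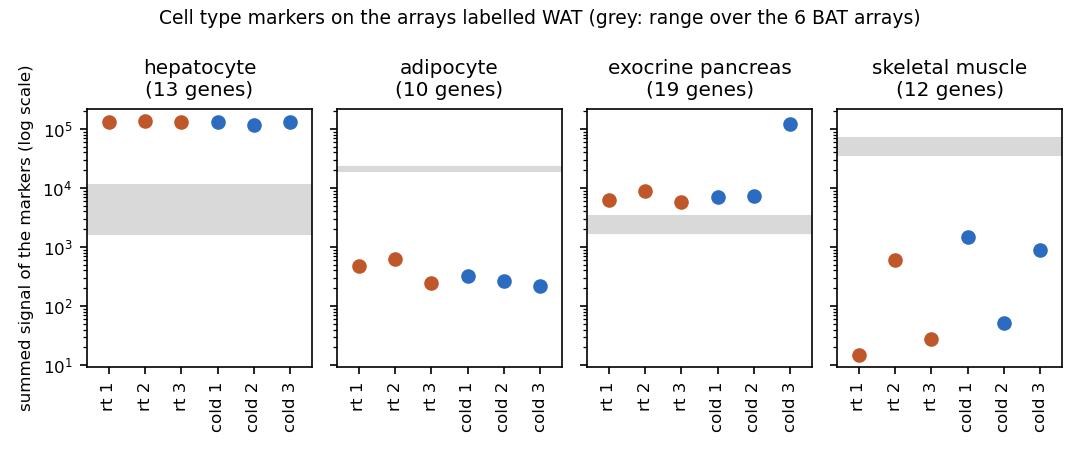
Summed signal (log scale) of the markers of 4 cell types on each of the 6 arrays labelled WAT, room temperature (rt) in orange and cold in blue, with the range over 6 BAT arrays in grey. Hepatocyte markers sat above the BAT range and adipocyte markers below it on all 6 arrays, and exocrine pancreas markers reached 118730 on cold replicate 3 only.

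In the cold Rgs16 and Adh7 fell and Slc16a5 rose, and no other probe passed the test. That is 1 probe higher (0.00695% of those tested) and 2 lower (0.0139%), or 1 of the 8159 genes higher (0.0123%) and 2 of them lower (0.0245%). By the looser rule of an unadjusted p under 0.05, 366 probes had higher values (2.55%) and 334 lower ones (2.32%), together 4.87% of the tested probes. A threshold of 0.05 lets through a share of about this size where no probe changes. Over genes, 192 (2.35%) were higher and 197 (2.41%) lower by that rule. The 2 groups did not overlap for 391 genes with higher signals in the cold (4.79%) and 500 with lower signals (6.13%). Groups of 3 and 3 arrays separate at about such shares with no change as well. The median log2 change over all genes was -0.01. With 3 arrays against 3 an exact permutation test of a single gene cannot give a two-sided p under 0.1, so limma, which shares the spread between probes, was used. The arrays come from separate animals as the study's methods describe, although the labels give replicate numbers alone.

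Rgs16 encodes a GTPase-activating protein that ends signalling by G protein-coupled receptors. Its signals were 1166, 2997 and 2108 at room temperature, against 210.7, 118.7 and 168.0 in the cold. Every cold array lay below every room temperature array by over 5 times. The log2 change was -3.48 ± 0.34 (SE, n = 3 and 3, adjusted p = 0.0411), or 11.1-fold lower. No gene with groups that did not overlap had a lower change, and all 6 arrays detected it. Other members of its family were quieter. Of 15 listed regulators of G protein signalling 5 were tested, Rgs16 was the only one called, and the other 4 had log2 changes of 0.64 (Rgs4), -0.80 (Rgs5), -0.38 (Rgs12) and -0.42 (Rgs3), each with an adjusted p of 0.959.

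Adh7 encodes an alcohol dehydrogenase that oxidizes retinol and ethanol. It had signals of 58.5, 75.6 and 66.7 at room temperature, against 3.8, 1.4 and 9.1 in the cold, where no array detected it. It was at least 2.68-fold lower in the cold, taking the lowest detected level of each cold array as its floor (adjusted p = 0.0420). Of the 17 tested alcohol, aldehyde and retinol dehydrogenases, Adh7 included, 8 were positive, with a median of -0.06, beside a median of -0.01 for all genes. At an unadjusted p under 0.05 Rdh16, a retinol dehydrogenase, had a log2 change of 0.76 ± 0.25, and Aldh1a1, which makes retinoic acid from retinal, of 0.62 ± 0.26. Adh4 had -0.51 ± 0.20.

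Slc16a5 encodes a member of the monocarboxylate transporter family. Its signals were 70.8, 63.8 and 65.5 at room temperature, against 300.5, 241.6 and 218.8 in the cold. The room temperature arrays lay within 7 units of each other and the cold arrays at over 3 times their level. The log2 change was 1.71 ± 0.20 (adjusted p = 0.0478), or 3.27-fold. Among 14 tested transporters of organic anions, cations and monocarboxylates, 11 were positive and the median was 0.20. Slco1a4, a hepatocyte uptake transporter for bile acids and drugs, was at 196.7, 223.2 and 258.2 at room temperature, against 549.5, 496.7 and 371.7 in the cold (log2 change 1.01 ± 0.22, adjusted p = 0.462). Slco1a1, a related transporter higher in male liver, had -0.77 ± 0.30 (adjusted p = 0.959).

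These 3 calls depended on single arrays and on the processing. No probe was called with a larger offset, without background correction, on the authors' value table, with either wider filter, by the methods' t-test or with the replicate number as a block. Without room temperature replicate 1 only Rgs16 was called, and without room temperature replicate 2 or 3 no probe was. Without cold replicate 1 only Fbxw5 was called, and without cold replicate 2 a set of 5 probes that held none of the 3. Without cold replicate 3, the array with pancreas markers, 11 probes were called, and these held all 3 together with Dusp1, Hsd3b5, Nr1d1, Trib3, Trim11, both of 2 Pdxdc1 probes and an unnamed probe. Over these 6 fits the log2 change of Rgs16 stayed between -3.84 and -3.17, that of Adh7 between -1.84 and -1.69 and that of Slc16a5 between 1.59 and 1.80. Under other processing the ranges were -3.6 to -3.25 for Rgs16, -3.45 to -0.99 for Adh7 and 1.38 to 1.92 for Slc16a5. The size of the Adh7 change thus depended on the processing.

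Beyond the 3 called genes, 27 genes had groups that did not overlap, an unadjusted p under 0.01, detection on all 3 arrays of a group and a log2 change among the 15 highest or 15 lowest of such genes. They were chosen by these values, which are therefore given as a description. The first 3 of these conditions were met by 100 genes.

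**Figure D2:**
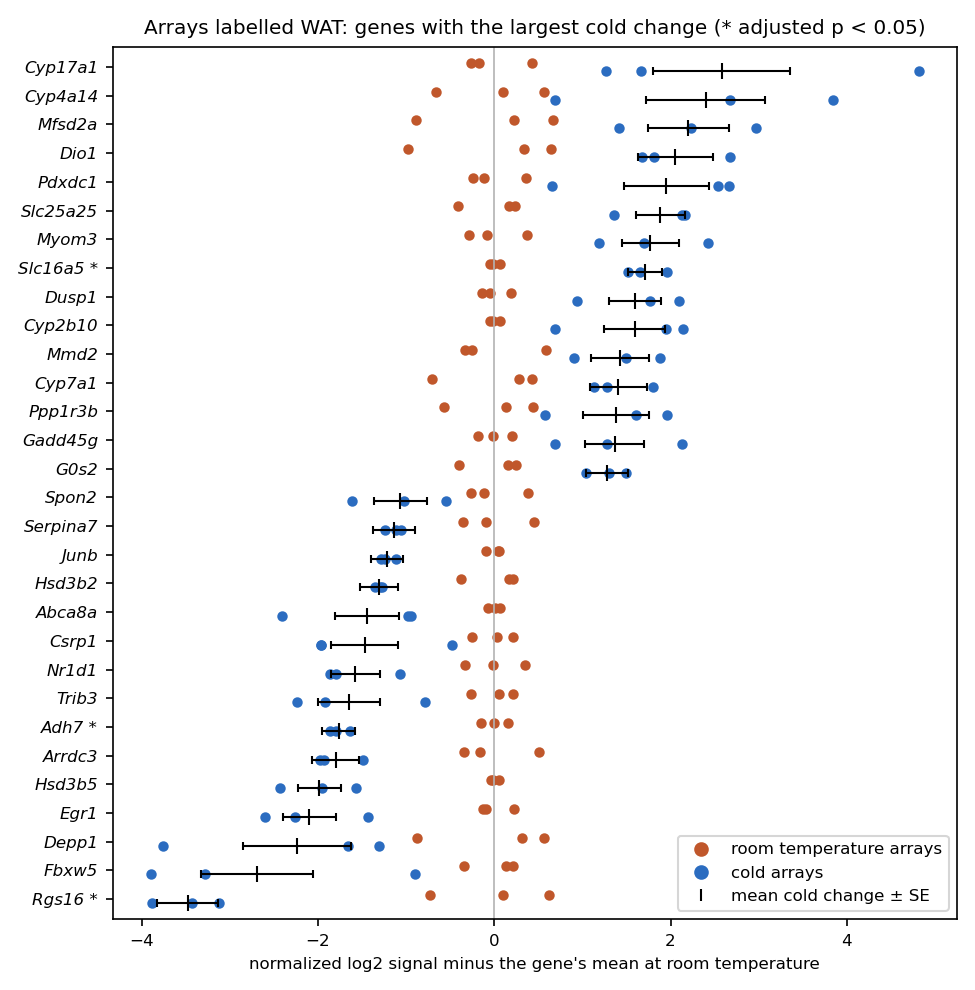
Normalized log2 signal of each array minus the room temperature mean of the gene, for the 15 genes with the highest and the 15 with the lowest cold change among genes chosen for groups that do not overlap. Orange points are room temperature arrays, blue points cold arrays, black bars the mean cold change ± SE, and stars mark Slc16a5, Adh7 and Rgs16 (adjusted p of 0.0478, 0.0420 and 0.0411).

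Steroid and bile acid enzymes stood at both ends. Hsd3b5, a 3-ketosteroid reductase of male mouse liver, was at 4299, 4031 and 4071 at room temperature, against 749, 1372 and 1058 in the cold. Its room temperature arrays agreed closely and its cold arrays lay far below them, with a log2 change of -1.98 ± 0.24 that just missed the threshold (adjusted p = 0.0579). Hsd3b2 of the same family was at 674.4, 438.4 and 644.1 at room temperature, against 225.9, 230.0 and 216.3 in the cold (-1.31 ± 0.22, adjusted p = 0.195), and all 4 of its probes had negative changes. Hsd3b1 had -0.09 ± 0.22, and Hsd3b7, which acts in bile acid synthesis, -0.54 ± 0.25. Probes for such closely related genes may share targets.

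Cyp7a1, the rate-limiting enzyme of bile acid synthesis, was at 1533, 1376 and 689 at room temperature, against 2514, 3926 and 2761 in the cold (log2 change 1.40 ± 0.32, adjusted p = 0.495). All cold arrays exceeded all room temperature arrays, yet the other genes of the pathway did not follow. Of 14 tested genes of bile acid synthesis and biliary transport 5 were positive, with a median of -0.20. The canalicular exporters had negative values, with -0.70 ± 0.28 for the bile salt pump Abcb11, and -0.53 ± 0.21 and -0.44 ± 0.20 for the sterol transporters Abcg8 and Abcg5.

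Cyp17a1, which makes androgen precursors, was at 26.8, 10.9 and 8.2 at room temperature, against 847.4, 82.5 and 59.2 in the cold. It was detected on 1 room temperature array and on all 3 cold arrays, and cold replicate 1 carried most of its log2 change of 2.58 ± 0.78 (adjusted p = 0.773; 1.46 without that array). Cyp4a14, a fatty acid hydroxylase induced through PPARα in mouse liver, was at 28.7, 86.3 and 58.9 and then 971.6, 95.7 and 422.1 (2.40 ± 0.68, adjusted p = 0.692), so that cold replicate 2 lay only just above the room temperature arrays. Cyp2b10, a drug-metabolizing enzyme induced through the receptor CAR, was detected on no room temperature array, at 1.0, 5.7 and 2.5, and on all cold arrays, at 74.2, 22.5 and 86.9, at least 2.33-fold higher (adjusted p = 0.464). Across 28 tested cytochrome P450 genes and xenobiotic receptors the median was 0.06, with 15 positive and 13 negative.

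Genes of lipid and glucose handling were next. Mfsd2a, a transporter of lysophosphatidylcholine, was at 129.4, 409.5 and 294.7 at room temperature, against 2070, 695 and 1230 in the cold (log2 change 2.20 ± 0.46, adjusted p = 0.418). G0s2, an inhibitor of the triglyceride lipase Atgl, was at 459.2, 679.6 and 724.2 and then 1753, 1519 and 1266 (1.28 ± 0.24, adjusted p = 0.297). Both had every cold array above every room temperature array. Ppp1r3b, which brings protein phosphatase 1 to glycogen, had 1.38 ± 0.38 (adjusted p = 0.692), and Slc25a25, a mitochondrial carrier of ATP-Mg and phosphate, was at 121.9, 72.6 and 115.2 and then 507.6, 282.3 and 491.1 (1.88 ± 0.28, adjusted p = 0.121). Among 10 tested genes of gluconeogenesis the median was 0.12, and Pck1, its phosphoenolpyruvate carboxykinase, was at 80.9, 58.3 and 84.3 and then 161.2, 181.1 and 134.6 (0.96 ± 0.21, adjusted p = 0.468). Pfkfb3, which makes the activator of phosphofructokinase, had -0.97 ± 0.22 (adjusted p = 0.482). Of 13 tested genes of fatty acid oxidation and ketogenesis 5 were positive, with a median of -0.15.

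Dio1, the deiodinase that turns thyroxine into the active hormone, was at 41.2, 157.1 and 124.1 at room temperature, against 370.3, 683.5 and 338.1 in the cold (log2 change 2.05 ± 0.43, adjusted p = 0.413). All 3 of its tested probes had the same sign, but for the other 2 the groups overlapped, with cold replicate 3 at 30.0 and 33.4. Their changes were 0.97 ± 0.71 and 1.54 ± 0.65 (adjusted p = 0.959 for each). Serpina7, which encodes thyroxine-binding globulin, was at 121.7, 224.7 and 149.5 and then 69.8, 59.2 and 66.2 (-1.14 ± 0.24, adjusted p = 0.418). The 2 genes moved apart in value, and the 8 tested genes of the thyroid hormone axis split evenly, 4 positive and 4 negative. Klf9, a transcription factor induced by thyroid hormone, had -0.64 ± 0.24 (adjusted p = 0.959).

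Signalling and immediate early genes also split. Dusp1, a phosphatase of MAP kinases, was at 241.5, 201.4 and 188.2 at room temperature, against 944.1, 750.5 and 415.6 in the cold (log2 change 1.60 ± 0.29, adjusted p = 0.297). Egr1, a zinc finger transcription factor, was at 243.1, 249.1 and 314.4 and then 32.1, 89.7 and 44.1 (-2.10 ± 0.30, adjusted p = 0.112). Junb, a subunit of AP-1, was at 113.2, 101.7 and 115.0 and then 38.3, 42.9 and 36.3 (-1.21 ± 0.18, adjusted p = 0.121). Thus of 13 tested immediate early genes 6 had an unadjusted p under 0.05, 3 in each direction (beside 2.35% of all genes higher and 2.41% lower), with none past the adjusted threshold. Gadd45g, a stress-inducible gene, had 1.37 ± 0.34, and Jun, another AP-1 subunit, 0.89 ± 0.24, both dim, with 1 room temperature array detected each. Arrdc3, an arrestin-like adaptor that acts on β-adrenergic receptors, was at 439.8, 502.4 and 808.2 and then 131.7, 191.6 and 137.1 (-1.80 ± 0.27, adjusted p = 0.121). Trib3, a pseudokinase that binds Akt and is induced by the transcription factor ATF4, was at 177.5, 197.9 and 138.6 and then 24.3, 34.0 and 92.8 (-1.65 ± 0.35, adjusted p = 0.462). Cold replicate 3 lay nearest to room temperature for Trib3, and without it the change was -2.08. Atf4 itself had 0.64 ± 0.26 (adjusted p = 0.959). Insr, the insulin receptor, was at 6.4, 9.5 and 1.3 and then 16.7, 12.7 and 15.7 and was detected on 2 cold arrays only, so that its bound of 1.02-fold says little at this signal. Egfr, the epidermal growth factor receptor, was at 1416, 1057 and 1590 and then 732.4, 575.0 and 697.5 (-0.98 ± 0.22, adjusted p = 0.482).

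Of 16 tested clock genes 7 were positive and 9 negative, with a median of -0.04. Nr1d1, which encodes the repressor REV-ERBα, was at 81.9, 139.6 and 105.7 at room temperature, against 18.4, 20.2 and 43.1 in the cold (log2 change -1.58 ± 0.27, adjusted p = 0.233). Dbp, a clock-driven transcription factor, was at 2692, 2875 and 3885 and then 1303, 1411 and 2040 (-0.997 ± 0.24, adjusted p = 0.544). Noct, a rhythmic phosphatase of NADP(H), was at 105.9, 148.9 and 69.2 and then 226.8, 174.7 and 455.9 (1.24 ± 0.36, adjusted p = 0.754). The groups did not overlap for any of these, whereas Per1, Per2, Per3, Clock and Rora overlapped, with log2 changes of -0.05 to 0.32. Times of day of collection were not used here.

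Of the remaining genes of this set, Depp1, a gene induced by FOXO factors, was at 1911, 2310 and 832 and then 477.0, 619.4 and 100.8 (-2.24 ± 0.61, adjusted p = 0.692). Abca8a, a lipid transporter family member, had -1.44 ± 0.36, Spon2, a secreted matrix protein, -1.06 ± 0.30, and Mmd2 1.43 ± 0.32. Myom3, a protein of the muscle M-band, was at 22.9, 11.3 and 5.1 and then 51.8, 142.2 and 80.1 (1.77 ± 0.32, adjusted p = 0.297). Its highest array was cold replicate 2, where the summed skeletal muscle markers were 51.4, against 1470 and 884 on cold replicates 1 and 3. Any part of muscle RNA in the Myom3 change was not tested. Fbxw5, a substrate receptor of a ubiquitin ligase, was at 415.3, 276.4 and 389.5 and then 182.9, 6.9 and 23.2 (-2.69 ± 0.64, adjusted p = 0.497). Csrp1, a LIM domain protein, was at 68.4, 79.7 and 53.5 and then -4.1, 43.4 and -4.3, and in BAT at 258.7, 300.7 and 208.8 and then -2.0, 162.4 and -3.2. The cold arrays numbered 1 and 3 were near 0 in both. For Pdxdc1 the 4 tested probes disagreed in sign, and the brightest was at 28.0, 12.0 and 15.5 and then 179.5, 196.7 and 37.8, with BAT cold arrays at 123.7, 151.6 and 3.4 and BAT room temperature arrays at 2.4 to 7.6.

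Cholesterol synthesis, heat shock proteins and the urea cycle list had medians furthest above 0 among lists of 10 or more tested pathway genes, none with a member past the adjusted threshold. These counts stand beside the 2.35% of all genes higher and 2.41% lower by unadjusted p.

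Cholesterol is built from acetyl-CoA through mevalonate, squalene and lanosterol, and its enzymes are induced together by the factor SREBP2 when sterols are scarce. All 13 cholesterol synthesis genes with a probe were tested and were detected on all 6 arrays. Of these 12 were positive, with a median log2 change of 0.36, and at an unadjusted p under 0.05 the count was 6 higher and none lower. Cyp51, the lanosterol demethylase, was at 784.6, 738.7 and 791.9 at room temperature, against 1367, 1517 and 1396 in the cold (0.87 ± 0.18, adjusted p = 0.413). Msmo1, the methylsterol oxidase that follows, was at 2184, 2217 and 1791 and then 4215, 4166 and 3559 (0.96 ± 0.20, adjusted p = 0.413). Hsd17b7, which reduces the ketosteroid of the same step, was at 1038, 1069 and 707 and then 1351, 1893 and 1928 (0.87 ± 0.24, adjusted p = 0.692). These 3 genes, Nsdhl (0.59 ± 0.21) and Lss (0.59 ± 0.24) had groups that did not overlap, all higher, as 4.79% of all genes did. Mvd, of the mevalonate branch, overlapped at 0.96 ± 0.38. Fdps, Sqle and Ebp had 0.36 ± 0.27, 0.27 ± 0.35 and 0.08 ± 0.20. A second, dim probe of Fdps was at 14.4, 63.9 and 22.0 and then at 130.8 or more on each cold array, with an adjusted p of 0.233. For Nsdhl its 3 tested probes disagreed in sign. Tm7sf2, a sterol reductase, was the exception at -0.46 ± 0.39, with 245.0 on cold replicate 3 against 647.5 to 788.1 on the others. Without cold replicate 3 the median of the 13 genes was 0.57 and 7, all higher, had an unadjusted p under 0.05, beside the 2.91% of probes higher in that fit, and none passed the adjusted threshold. Without room temperature replicate 2 the median was 0.65.

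**Figure D3:**
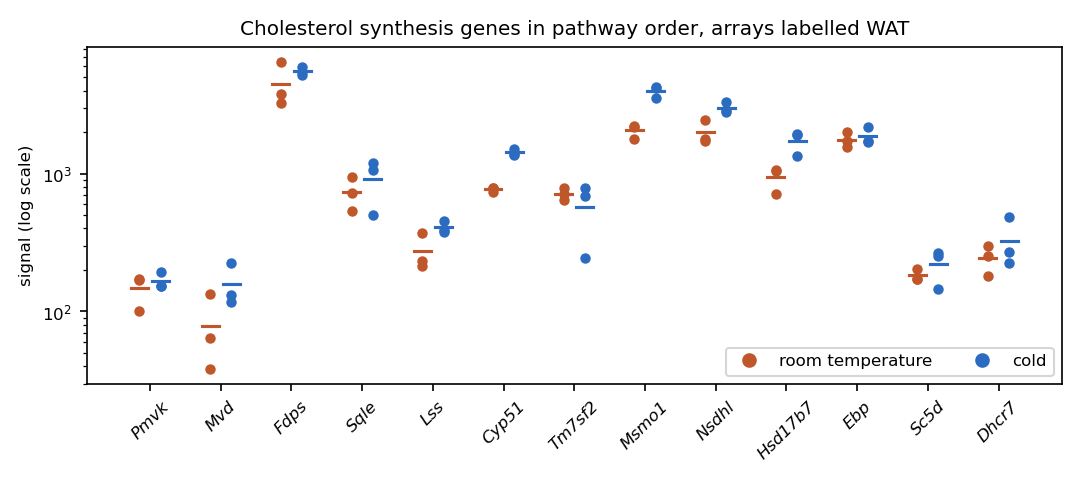
Signals (log scale) of the 13 tested cholesterol synthesis genes in pathway order, 3 room temperature arrays (orange) and 3 cold arrays (blue), with the group means as bars. The groups separate for Lss, Cyp51, Msmo1, Nsdhl and Hsd17b7, and Tm7sf2 is lowest on cold replicate 3.

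Promoters are shown for Cyp51, Msmo1 and Hsd17b7, which had the largest changes among the genes of this list whose groups did not overlap. The CCAAT box, bound by the factor NF-Y, which works with SREBP at sterol promoters, was sought on both strands (letters CCAAT) in the 250 bases before each start of the RefSeq table, which holds 11 of the 13 genes. All 11 held it in at least 1 of their windows, against 37.49% of the 27025 genes of the table. The 8 letters CACCCCAC, one form of the sterol regulatory element, were in none of the 11 and in 2.98% of all genes. Among the 30 genes with the largest changes, CCAAT was in 4 of the 10 highest and 4 of the 13 lowest with a window, and CACCCCAC in 3 of those 10 (Dusp1, G0s2 and Myom3) and none of those 13. The 3 windows printed are those of Cyp51 at chr5:4104698-4104947 (- strand), Msmo1 at chr8:64733579-64733828 (- strand) and Hsd17b7 at chr1:169969206-169969455 (- strand), all of build GRCm38.p6 and read 5′ to 3′ toward the start. Capitals mark CCAAT or its complement ATTGG, which begins 29 bases before the start in Cyp51, 160, 96 and 55 bases before it in Msmo1, and 165, 73 and 12 bases before it in Hsd17b7.
Cyp51: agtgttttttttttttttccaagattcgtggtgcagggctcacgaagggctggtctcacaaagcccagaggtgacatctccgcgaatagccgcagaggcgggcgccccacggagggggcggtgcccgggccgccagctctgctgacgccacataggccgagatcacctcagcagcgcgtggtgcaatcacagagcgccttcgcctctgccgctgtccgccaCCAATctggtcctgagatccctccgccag
Msmo1: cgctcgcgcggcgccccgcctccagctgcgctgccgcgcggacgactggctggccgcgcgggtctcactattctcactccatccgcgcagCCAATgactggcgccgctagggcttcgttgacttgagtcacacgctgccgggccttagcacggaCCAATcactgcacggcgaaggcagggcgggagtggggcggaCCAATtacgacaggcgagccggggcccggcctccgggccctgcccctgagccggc
Hsd17b7: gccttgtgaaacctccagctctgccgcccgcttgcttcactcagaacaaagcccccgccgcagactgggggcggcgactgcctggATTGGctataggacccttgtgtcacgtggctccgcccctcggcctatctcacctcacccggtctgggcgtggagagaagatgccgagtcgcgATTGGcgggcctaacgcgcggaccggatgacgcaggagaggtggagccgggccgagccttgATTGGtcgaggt
Among the 10 of 15 highest genes with a window, Dusp1 and Slc25a25 held the cyclic AMP response element TGACGTCA, as 1.77% of all genes did, Slc25a25 in 1 of its 3 windows. None of the 13 of 15 lowest genes with a window held it. The Dusp1 window, at chr17:26508473-26508722 (- strand), has it in capitals 143 bases before the start. The window of Rgs16, at chr1:153740103-153740352 (+ strand), is shown for the gene with the largest fall, with a CCAAT box in capitals 68 bases before the start. A match of letters is a description of the window and no binding was measured.
Dusp1: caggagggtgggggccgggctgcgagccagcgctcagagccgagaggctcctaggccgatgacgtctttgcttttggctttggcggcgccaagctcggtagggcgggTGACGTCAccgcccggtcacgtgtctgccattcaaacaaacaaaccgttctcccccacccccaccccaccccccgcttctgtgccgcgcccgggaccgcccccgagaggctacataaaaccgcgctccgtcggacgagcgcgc
Rgs16: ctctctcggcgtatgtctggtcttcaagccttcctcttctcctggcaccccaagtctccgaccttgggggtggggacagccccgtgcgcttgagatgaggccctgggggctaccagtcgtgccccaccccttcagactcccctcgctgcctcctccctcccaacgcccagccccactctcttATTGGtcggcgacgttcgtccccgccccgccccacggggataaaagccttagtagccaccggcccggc

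Heat shock proteins and chaperones fold proteins and refold them after stress. Of 11 tested, 9 were positive with a median log2 change of 0.40, and 4 of them, all higher, had an unadjusted p under 0.05. Hsp90aa1, the inducible cytosolic HSP90, was at 43.3, 38.1 and 53.4 at room temperature, against 80.0, 100.6 and 156.8 in the cold (1.06 ± 0.25, adjusted p = 0.511). Bag3, a co-chaperone of HSP70, and its partner Hspb8 had 0.50 ± 0.19 and 0.54 ± 0.23 with groups that did not overlap, and Hsph1 had 0.70 ± 0.29 with overlap. Chaperones of the endoplasmic reticulum did not share this, with -0.55 ± 0.28 for Pdia4 and -0.10 ± 0.21 for Hsp90b1. Pdia4 was lowest on cold replicate 3, at 322.1.

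The urea cycle and amino acid catabolism, by which hepatocytes dispose of nitrogen and use amino acid carbon, had 17 of 21 tested genes positive and a median of 0.30. An unadjusted p under 0.05 was reached by 5, all higher. Groups did not overlap for 8, all higher, beside 4.79% of all genes higher and 6.13% lower by that rule. Prodh, which starts proline breakdown, was at 447.8, 478.1 and 322.8 at room temperature, against 728.8, 767.6 and 922.5 in the cold (0.95 ± 0.22, adjusted p = 0.495). Asl, argininosuccinate lyase, was at 4792, 4941 and 3607 and then 8716, 5669 and 11567 (0.92 ± 0.28, adjusted p = 0.773). Its neighbour in the cycle Ass1 had 0.36 ± 0.19, whereas Arg1 and Cps1 had -0.02 ± 0.29 and -0.00 ± 0.49. Cps1, which makes carbamoyl phosphate, was at 6450, 5294 and 6488 and then 10044, 9287 and 2302, so cold replicate 3 lay below all room temperature arrays and the other 2 cold arrays above them. Hpd, of tyrosine breakdown, was in contrast highest on cold replicate 3, at 13094 against 3855 to 7948 on the others.

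Other hepatocyte functions lay near the median of all genes. Apolipoproteins and lipoprotein secretion had a median of -0.02 over 14 genes, acute phase and complement -0.03 over 21, oxidative phosphorylation 0.00 over 26, glycolysis and lipogenesis 0.00 over 16, and conjugating enzymes 0.06 over 24. Within the last, Gstt3, a glutathione transferase, was at 790.0, 1771 and 954 and then 2381, 2490 and 3089 (1.24 ± 0.30, adjusted p = 0.521). Hamp, the iron-regulating hormone hepcidin, was at 2737, 3741 and 2872 and then 5358, 3836 and 5519 (0.63 ± 0.22, adjusted p = 0.959). Genes of fat were dim or uneven. Lpl, lipoprotein lipase, was at 292.4, 293.8 and 122.8 and then 96.0, 102.3 and 106.8 (-1.02 ± 0.31, adjusted p = 0.808). Ucp1, the uncoupling protein of brown fat, was at -3.2, 639.3 and 82.5 at room temperature, against -4.8, 308.9 and 4.9 in the cold, a spread within each group that exceeded any difference between them (-1.02 ± 1.29, adjusted p = 0.964). Cirbp, a cold-inducible RNA-binding protein, was at 53.1, 17.2 and 33.6 and then 4.6, 34.6 and 6.8 (-0.62 ± 0.35, adjusted p = 0.959).

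**Figure D4:**
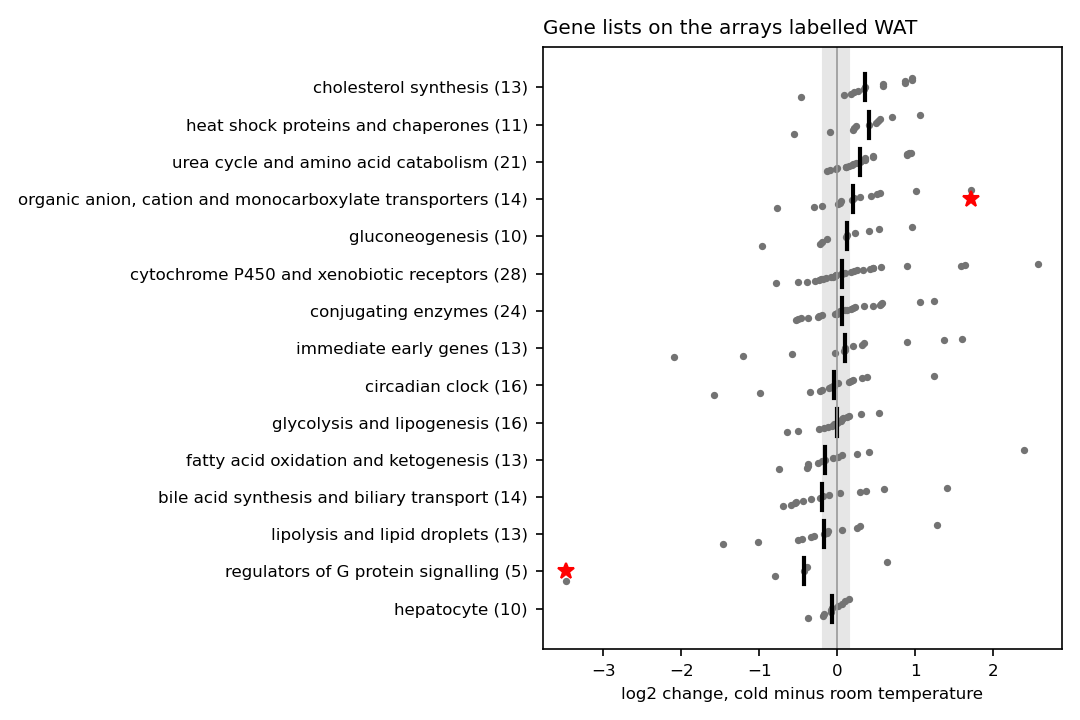
Log2 change of every tested member of 15 gene lists on the arrays labelled WAT (grey points, number of tested genes in brackets), with the list median as a black bar, the range between the quartiles of all genes shaded, and called genes as red stars (Slc16a5 and Rgs16). Cholesterol synthesis, heat shock proteins and the urea cycle list have medians of 0.36, 0.40 and 0.30, and the hepatocyte markers -0.07.

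The cold change on these arrays was then set against that on the 6 BAT arrays, in a fit of all 12 arrays normalized together, over 17895 probes. The study took several tissues from each animal, so arrays of the same temperature and number may share a mouse, which the labels do not state. Deviations from the group means of such arrays correlated at 0.11, 0.17 and 0.16 at room temperature and at 0.15, 0.00 and -0.02 in the cold. With temperature and number as a random block, chosen after seeing the data, the counts below were 72 and 27. The change was higher where labelled WAT for 71 probes (0.397%) and lower for 27 (0.151%). Of the 71 probes, 52 had a BAT change below -1 and a change within 0.5 of 0 where labelled WAT. Among them were a probe of Fga, a fibrinogen chain (-3.70 in BAT and -0.07 where labelled WAT, adjusted p = 0.00107), and Apoa1, the main protein of high-density lipoprotein (-2.87 and -0.34, adjusted p = 0.00354). Hpx and Ttr also differed, with -2.38 and -4.08 in BAT, where the summed hepatocyte markers varied from 1666 to 11219 between arrays. The part of that variation in these differences was not tested. Of the 27 probes, 17 had a BAT change above 1, such as Elovl3, a fatty acid elongase of brown fat (1.91 in BAT and -0.08 where labelled WAT), and Cxcl14, a chemokine (2.44 and -0.15).

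Of the 30 genes with the largest changes where labelled WAT, 8 differed from BAT by this test, but the 30 were chosen by the same values where labelled WAT, so these are given as a description. Of the 8 genes 6 lay at or below 21.9 on every BAT array, so that their differences rest mostly on the change where labelled WAT. Rgs16 changed by -0.44 in BAT, where signals were 12.3, 12.7 and 17.4 and then 2.1, -0.7 and 0.7, and the difference was -3.03. Slc16a5 was near background in BAT, at 9.5 to 21.8 on all 6 arrays, and its change differed by 1.75. Adh7 and Cyp7a1 lay between -3.8 and 21.9 in BAT, with log2 changes of -0.42 and -0.60 there, and differed by -1.35 and 2.01. The BAT change thus makes up part of the difference of Cyp7a1. Junb was at 24.3, 46.3 and 35.3 and then 51.3, 44.7 and 33.1 in BAT, a log2 change of 0.22 against -1.21 (adjusted p = 0.0261). Myom3 was at 182.8, 148.5 and 175.3 and then 131.7, 140.5 and 114.0 in BAT, and differed by 2.12 (adjusted p = 0.0222). Hsd3b2 and Slc25a25 differed by -1.21 and 1.85. For Rgs16 and Slc16a5 the call was lost without background correction (adjusted p = 0.101 and 0.103) but with no single array left out. The call was lost for Cyp7a1 without any 1 of the 6 BAT arrays, for Slc25a25 without any array but WAT cold replicate 2, for Hsd3b2 without any but WAT room temperature replicate 2, and for Adh7, Junb and Myom3 without 5, 6 and 6 of the 12 arrays, in each case with the sign kept. No difference was called for Dusp1 (1.60 where labelled WAT and 1.53 in BAT), G0s2 (1.28 and 1.35), Gadd45g (1.37 and 1.61) or Mfsd2a (2.20 and 2.78), with differences of 0.07, -0.07, -0.24 and -0.58. A p above the threshold does not show that these changes are equal. G0s2 in BAT was at 1917, 1305 and 1433 and then 4036, 3710 and 4098, and Dusp1 at 354.9, 476.9 and 291.9 and then 949.4, 1182 and 1123, so that for both genes the groups were separate in BAT as well.

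**Figure D5:**
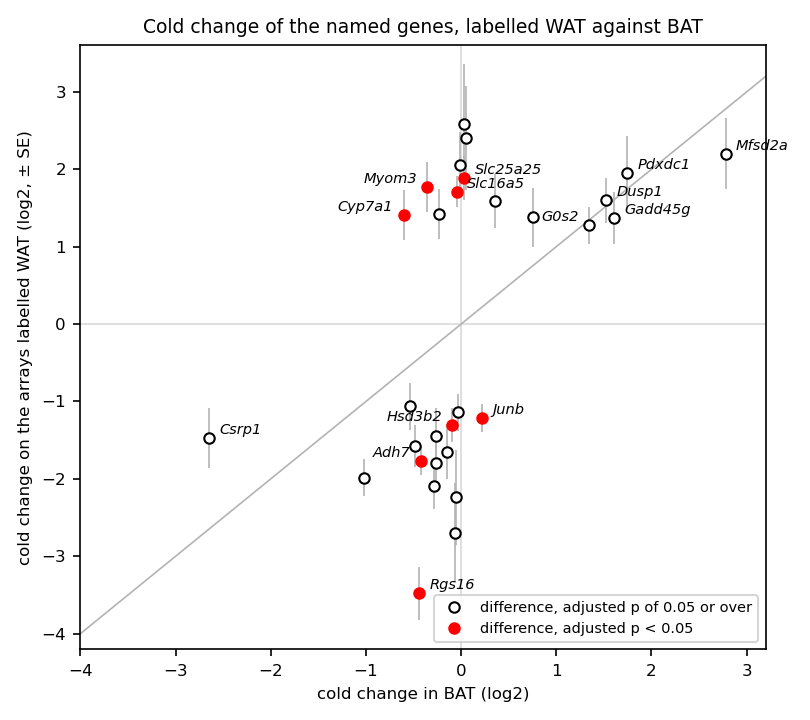
Log2 cold change of the 30 genes on the arrays labelled WAT (vertical axis, ± SE) against that in BAT (horizontal axis, no error drawn), with the line of equal change. Filled red points are the 8 genes whose changes differ at an adjusted p under 0.05, and Dusp1, G0s2, Gadd45g and Mfsd2a lie near the line.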

How the data were processed

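RNA of 16 samples had been amplified with an Illumina kit and measured on MouseWG-6 arrays. The deposited intensity values are linear signals from which the authors had subtracted background before deposit. Of those on the 6 arrays labelled WAT, 57.5% lie under 5. Their quartiles were alike on these arrays (-2.7, 2.7 and 18.35 or 18.4), so the distributions had been matched between arrays before deposit. The deposited detection score runs from 0 to 1 per probe and array. The authors also deposited a log2 value table made in GeneSpring GX, which equals the log2 signal floored at 5 minus the probe's median over all arrays to within 2.54e-06. The genome build of the probes is not given in the sources used here.

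Signals of the 6 arrays were corrected with limma 3.58.1 in R 4.3.3 (normexp, offset 16, controls inferred from the detection scores), quantile-normalized and put on the log2 scale. The 14380 probes that 2 or more arrays detected (score 0.95) were fitted with lmFit and eBayes, cold against room temperature, with Benjamini-Hochberg adjustment at 0.05. The fit against BAT took 12 arrays and the interaction of label and temperature. For a probe undetected throughout a group, each array's lowest detected level, or the probe's own if higher, gave a bound on the fold. This bound is on values corrected with that offset. Symbols came from platform annotation updated through RefSeq (25349 probes with 1 symbol, 21294 with none, 0 with several). Precision is limited by the number of arrays. Named genes are the markers Hpx, Ttr and Adipoq, the 15 highest and 15 lowest genes by log2 change among those with groups that do not overlap, detection on all 3 arrays of a group and an unadjusted p under 0.01 (called genes first), genes of the paper's text (Insr, Trib3, Dio1, the Hsd3b genes), and members of 29 pathway and 17 cell type lists. Genes and lists were chosen with earlier results of these data known. Promoters are from RefSeq (GRCm38.p6).

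The fits were checked on simulated data. Alternatives were other corrections, scalings, filters and variance models, the value table, 1 fit over 16 arrays, the methods' t-test, the replicate number as a block, and leaving out each array. A random block by temperature and number in the BAT comparison was added after seeing the data.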

Additional observations from a re-analysis of the deposited data

Results flagged for a closer look

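Of the genes named, 10 had a cold change where labelled WAT that differed from the cold change in BAT by the test of that difference (limma, 12 arrays, adjusted p under 0.05). The difference is the log2 change where labelled WAT minus that in BAT. It was -3.03 for Rgs16, 1.75 for Slc16a5, -1.35 for Adh7, 2.12 for Myom3 (adjusted p = 0.0222), -1.43 for Junb (adjusted p = 0.0261), 2.01 for Cyp7a1, -1.21 for Hsd3b2 and 1.85 for Slc25a25. These 8 were chosen by their change where labelled WAT, which enters the difference. For the hepatocyte genes Hpx and Ttr it was 2.22 (adjusted p = 0.0134) and 4.02 (adjusted p = 0.0107), with the change on the side of BAT. In BAT, Rgs16, Slc16a5, Adh7, Cyp7a1, Hsd3b2 and Slc25a25 had signals of at most 21.9 on every array. Their differences therefore rest mostly on the change where labelled WAT. At this level the BAT changes of Rgs16, Adh7 and Cyp7a1 were -0.44, -0.42 and -0.60. Leaving out 1 array at a time ended the call for Adh7, Myom3, Junb, Cyp7a1, Hsd3b2 and Slc25a25 at least once each, and for Hpx without BAT room temperature replicate 1, while the signs did not change. Without background correction the call was lost for Rgs16, Slc16a5, Adh7, Slc25a25, Myom3, Hsd3b2, Junb and Ttr. An offset of 50 ended it for Myom3 and Cyp7a1, the wider filter for Slc25a25, Myom3, Cyp7a1 and Ttr, no filter for Slc25a25, Myom3, Cyp7a1, Hsd3b2, Junb, Hpx and Ttr, and the replicate block for Slc25a25, Adh7, Hsd3b2 and Junb. Over all alternatives the highest adjusted p was 0.440 for Slc25a25, 0.273 for Hsd3b2, 0.128 for Adh7 and 0.108 for Cyp7a1. It was 0.101 for Rgs16, 0.103 for Slc16a5, 0.0987 for Myom3, 0.078 for Junb, 0.0713 for Hpx and 0.083 for Ttr.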

How the results depend on the processing

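All 30 genes with the largest changes kept their sign under all 19 alternatives, which their choice by groups that do not overlap favours. The counts of calls moved. Beside 1 probe higher and 2 lower, no probe was called (0 and 0) with an offset of 50, without background correction, on the authors' value table, with a score of at least 0.6, without a filter, by the methods' t-test or with the replicate block. The counts were 0 and 2 after correction over all 16 arrays, 4 and 6 with an intensity trend, 5 and 4 with array weights and 15 and 12 in 1 fit over all 16 arrays, which shares their spread. Leaving out each array gave 0 to 4 higher and 0 to 7 lower. At an unadjusted p under 0.05, 366 and 334 became 775 and 759 with the wider filter, 1049 and 1063 without one (more probes tested), 581 and 579 in 1 fit over all arrays, and 210 to 723 and 204 to 513 with an array left out (210 and 209 without room temperature replicate 1, 242 and 204 without room temperature replicate 3, 723 and 513 without cold replicate 1, 412 and 501 without cold replicate 2). With the methods' 2-fold minimum added, 55 probes were higher and 38 lower, and the counts were 219 and 198 on the value table, 218 and 196 without background correction, 130 and 124 by the methods' t-test, 32 and 16 with an offset of 50, and 59 to 103 and 36 to 92 with an array left out. The counts differing from BAT, 71 and 27, were 26 and 17 without a filter, 47 and 11 with the replicate block, 72 and 27 with temperature and number as a random replicate block (chosen after seeing the data), 11 lower without background correction, and 32 to 86 and 9 to 32 with an array left out, with the lowest counts without BAT room temperature replicates 1 and 3. The median of heat shock genes was 0.29 with an offset of 50, and 0.32 to 0.45 with an array left out, that of cholesterol synthesis 0.30 to 0.65 and that of the urea cycle list 0.27 to 0.36. Same-numbered room temperature and cold arrays did not deviate together (r of 0.14, -0.02 and -0.03), so the numbers were not taken as pairs. The cause of these shifts was not tested unless stated. Counts for the gene lists without cold replicate 3 were an alternative chosen after seeing the data. The skeletal muscle list gave no value with detection required on all 3 arrays of a group. Probes at background cannot show a fall in the cold, and the median SD of the cold arrays was 0.30 on the log2 scale, against 0.208 without cold replicate 3 and 0.198 at room temperature.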

Other observations

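Several genes split the arrays within groups by far more than cold did, and are named after their values were seen. Serpina12, which encodes the adipokine vaspin, was at -5.7, 1621 and 2080 on room temperature arrays and at -5.2, -2.1 and 1316 on cold arrays of the label WAT, with both kinds of level in each group. Mid1ip1, a regulator of fatty acid synthesis, was at 469.6, 494.3 and 1.9 and then 592.0, 7.7 and 346.6, and in BAT at 456.9, 560.2 and 4.1 and then 785.7, 7.5 and 397.3. Gdpd3, a lysophospholipase D, was at 0.0, 561.8 and 252.3 and then 279.6, 8.5 and 439.5, and in BAT at 14.6, 851.7 and 567.9 and then 491.3, 12.4 and 388.7. For both genes the arrays near background carried the same group and replicate number under both labels, room temperature 3 and cold 2 for Mid1ip1 and room temperature 1 and cold 2 for Gdpd3. Cyp2a4, a steroid hydroxylase, was at 1.4, 361.4 and 6.1 and then 2.2, 566.1 and 25.9, so that replicate 2 of either group was high.

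On the arrays labelled liver, which enter no comparison here, Rgs16 was at 455.1 and 210.3 at room temperature, and 12.9 and 19.0 in cold mice. Hpx was there at 13674 and 6795 and then 131.0 and 13.0, and the summed hepatocyte markers ran from 10219 to 124296 over these 4 arrays. The same arrays carried fat markers, with Adipoq at 8151 to 18483 and the summed adipocyte markers at 30989 to 52705. Dusp1 was at 399.4 and 474.9 and then 975.6 and 1112.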
